A study of Mus musculus with 6 samples.

Results

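Cadherins and protocadherins outside the epithelial pair Cdh1 and Cdh3 were compared between the lower molar tooth germ and neighbouring oral tissue of mouse embryos. The members were all genes whose array symbol is Cdh followed by a number, apart from Cdh1 and Cdh3, and all genes whose symbol begins with Pcdh. They came to 86 of the 19057 genes measured, 21 of them cadherins and 65 protocadherins. Each gene was represented by its brightest probe over the 6 arrays, and 34 members had more than 1 probe (140 probes in all).

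Classical cadherins are calcium-dependent adhesion proteins that hold like cells together, and their cytoplasmic tails bind catenins, which connect them to actin. Protocadherins share the extracellular repeats but not the catenin-binding tail. The nonclustered ones of the delta class guide cell contact and axon growth, and the clustered ones are made from tandem promoters and give neurons a surface identity. The tooth bud epithelium is joined mainly by E-cadherin and P-cadherin, the products of Cdh1 and Cdh3, whereas muscle, vessels, nerves and mesenchyme around it use other members of the family.

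Embryos of the outbred CD-1 stock were taken on day 13.5 of gestation and profiled with 1-colour Illumina bead arrays. The tooth germ group held 3 arrays of whole lower molar buds, and the oral tissue group held 3 arrays of mandibular tissue labelled as holding neither teeth nor bone. Each array held tissue pooled over several embryos, and arrays of the same number came from the same embryos of a litter, so the 6 arrays form 3 pairs. No treatment or mutation was involved, and both groups contain several cell types.

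The labels contradict each other: titles and descriptions call one set of 3 arrays tooth germ, and the source name and tissue fields call that same set non-tooth tissue. The groups are named here by title, and if the other fields are right every sign below turns. In the arrays titled tooth germ, 6 of 7 dental marker genes and 7 of 9 surface epithelium markers were higher, and 10 of 12 skeletal muscle markers and 6 of 6 macrophage markers were lower. Of all genes 2.39% were called higher and 3.42% lower. None of 4 osteoblast and 5 cartilage markers was called. The osteoblast genes Ibsp and Sp7, named after their values were seen, were bright in both groups although the oral tissue is labelled as free of bone. Ibsp read 12.70, 10.88 and 12.96 in tooth germ and 12.13, 13.35 and 11.62 in oral tissue. Sp7 read 11.67, 10.86 and 11.40 in tooth germ and 10.81, 11.63 and 10.40 in oral tissue. The rest of the osteoblast list was Alpl, with means of 10.18 in tooth germ and 9.59 in oral tissue, and Bglap. Bglap was dim in both groups, with means of 6.94 in tooth germ and 6.88 in oral tissue. Values are on the deposited log2 scale, where the median gene stood at 7.26 and the upper quartile of genes at 8.84. Dim genes lie close to the lower end of the scale, 6.61, where differences may be compressed, and no detection p-values were used. In bulk tissue, fewer cells of a type and less RNA per cell cannot be told apart.

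Of the nonepithelial family 6 members were lower in tooth germ and 2 were higher. Cdh15, the cadherin of muscle precursors, differed most, followed by Cdh4 and by the delta protocadherins Pcdh17 and Pcdh10. Cdh6 and Pcdh19 were lower by smaller amounts, and Pcdh20 and Cdh12 were higher. These 8 of 86 members (9.3%) passed an adjusted p of 0.05 in limma, a linear model with shrunken variances, against 5.81% of all genes. The 6 lower members stand beside 3.42% of all genes called lower, and the 2 higher ones beside 2.39% called higher. The sign was the same in all 3 litter pairs for each of the 8. With litter as a block 11 members (12.8%) were called, 4 higher and 7 lower, against 8.88% of all genes. The median log2 difference, tooth germ minus oral tissue, was -0.016 over the 86 members and 0.0026 over all genes.

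**Figure D1:**
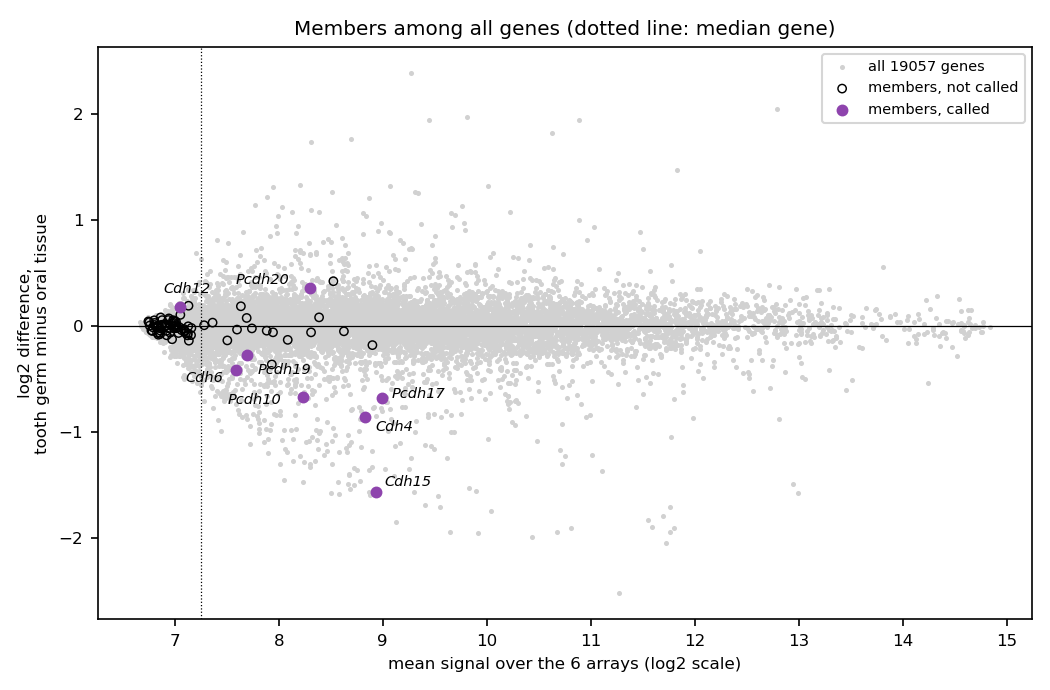
Each point is a gene, with its mean signal over the 6 arrays (log2 scale) on the x axis and its log2 difference, tooth germ minus oral tissue, on the y axis. Grey points are all 19057 genes, open circles are members that were not called, and filled circles are the 8 called members. Most members crowd at the dim end near 7, and Cdh15 lies lowest at -1.56.

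Of the 3 type I classical cadherins, Cdh15 and Cdh4 were lower in tooth germ (66.7% called, against 5.81% of all genes). Cdh15 encodes M-cadherin, which joins myoblasts before they fuse. Its signal was 8.13, 8.11 and 8.23 in tooth germ libraries 1 to 3, against 10.004, 9.44 and 9.71 in the oral tissue libraries. The groups were far apart, and the spread lay in oral tissue, where library 1 was highest and library 2 lowest. The log2 difference was -1.56 (SE 0.12, adjusted p = 2.4e-05), which is 2.95-fold higher in oral tissue. It stood at -1.87, -1.33 and -1.48 in the 3 litters. In the alternatives that kept the titled groups it lay between -1.70 and -1.41 and was called in each.

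The region before the start of Cdh15 is shown because this gene differed most. The 250 bases end just before the annotated start, at chr8:122848124-122848373 on the plus strand (GRCm38.p6, from RefSeq). They are written 5′ to 3′ with capitals for E-boxes (CANNTG) and for GC boxes (GGGCGG, or CCGCCC on the other strand).
Cdh15: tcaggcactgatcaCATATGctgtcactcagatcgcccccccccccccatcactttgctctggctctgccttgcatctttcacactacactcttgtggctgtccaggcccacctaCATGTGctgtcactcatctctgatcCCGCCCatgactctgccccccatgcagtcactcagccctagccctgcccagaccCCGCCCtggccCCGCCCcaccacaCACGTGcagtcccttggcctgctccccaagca
This window held 3 GC boxes and 3 E-boxes, the class of motif that basic helix-loop-helix factors bind. None of the 3 E-boxes had the form CAGCTG, which 13% of all promoters held and which, among the called members with a promoter in the table, only Cdh12 held. Of all promoters in the table, 66.2% held an E-box and 32.7% a GC box in the same 250 bases. A match describes the letters and is not a measured binding site.

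Cdh15 moved beside the skeletal muscle markers. The mean signal over the 12 muscle markers was 8.75, 8.60 and 8.62 in tooth germ, against 10.33, 9.78 and 10.14 in oral tissue. Among the oral tissue libraries, library 1 was highest and library 2 lowest, as for Cdh15. The mean of the neuron markers, given below, had the same order. Of the 12 markers 10 were lower and 2 were not called, with a median log2 difference of -1.76, and 3 of them (Myf5, Myf6 and Pax7) stood at or below the median gene. Myog, a myogenic regulator, read 7.90, 7.95 and 7.91 in tooth germ and 9.70, 9.21 and 9.46 in oral tissue. The part of muscle content in the Cdh15 difference was not tested.

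Cdh4 encodes R-cadherin, a type I cadherin known from the retina and other nervous tissue. It read 8.34, 8.45 and 8.44 in tooth germ and 9.75, 8.94 and 9.09 in oral tissue. The groups did not overlap, and oral tissue library 1 stood above the rest. The difference came to -0.85 on the log2 scale (SE 0.16, adjusted p = 0.0084), or 1.81-fold higher in oral tissue, and was -1.41 in litter 1 against -0.49 and -0.66 in the other litters. Its second probe, at a mean of 7.16, differed by only -0.095 and was not called. The call was lost when all probes of a gene were averaged (-0.47, adjusted p = 0.0541), without a variance trend (adjusted p = 0.0609) and with robust shrinkage (adjusted p = 0.0802).

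Neuronal markers were highest in that same oral tissue library, and so were the skeletal muscle markers. The mean signal over 8 neuron markers was 7.41, 7.46 and 7.33 in tooth germ and 8.33, 7.82 and 7.93 in oral tissue. Of these markers 3 were lower (37.5%, against 5.81% of all genes called) and 5 were not called. Their median log2 difference was -0.61, and 4 (Nefl, Tubb3, Elavl4 and Snap25) were at or below the median gene. The order of the oral tissue libraries was the same for Cdh4, Cdh15, the neuron markers and the muscle markers. That order therefore does not tell the lists apart. Whether nerve or muscle content plays a part in the Cdh4 difference was not tested.

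Cdh2 encodes N-cadherin, the type I cadherin of neural and mesenchymal cells. Its brightest probe read 7.11, 6.96 and 7.01 in tooth germ and 7.004, 6.96 and 6.97 in oral tissue, all below the median gene. The log2 difference was 0.049 (95% interval -0.043 to 0.14, adjusted p = 0.629), and the other Cdh2 probe, which was dimmer, differed by -0.062 (adjusted p = 0.524 over all probes). Both Cdh2 probes read near the lower end of the scale, so a difference in Cdh2 could be compressed here.

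**Figure D2:**
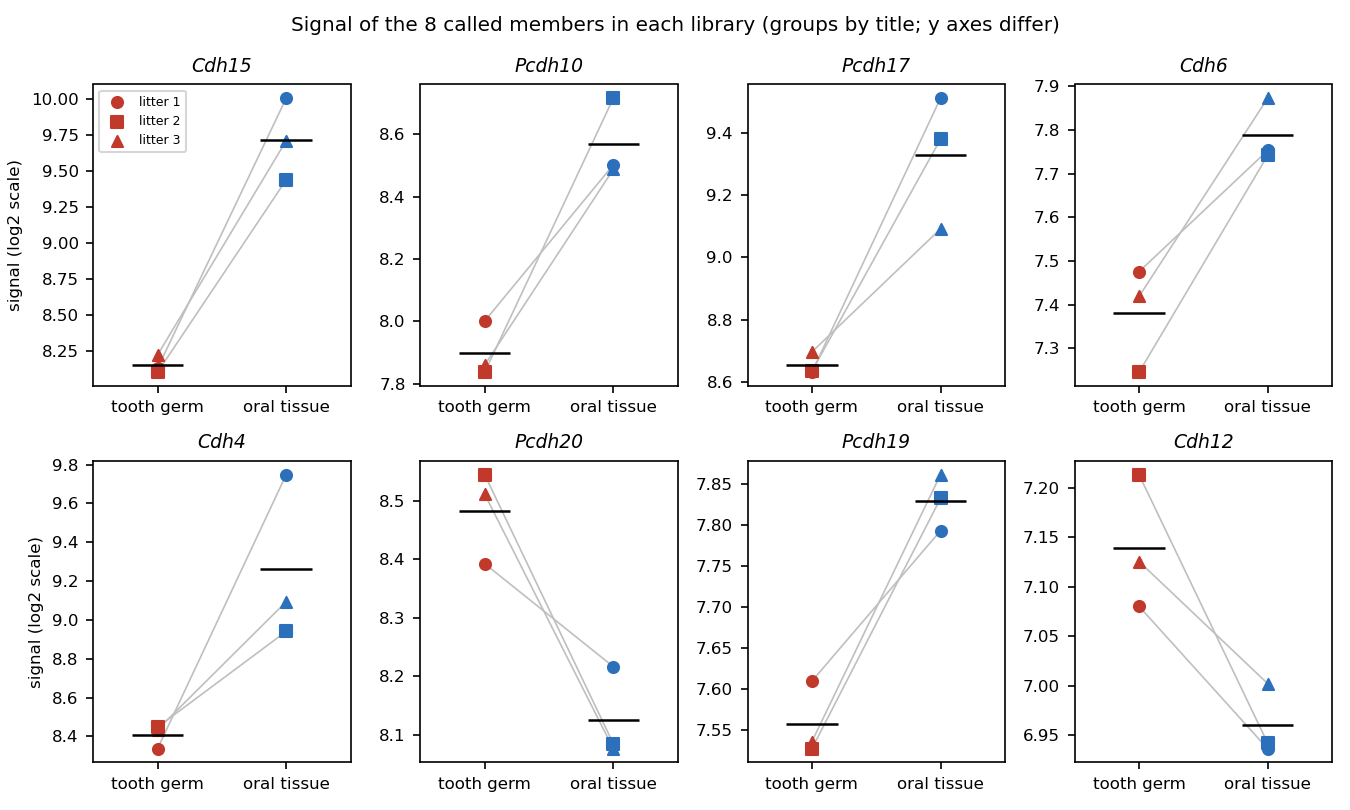
Signal (log2 scale) of the 8 called members in each library, with tooth germ in red on the left of each panel and oral tissue in blue on the right. Circles, squares and triangles are litters 1, 2 and 3, grey lines join libraries of a litter, and black bars are group means (n = 3). The groups do not overlap for any of the 8 genes, and oral tissue library 1 stands apart for Cdh4.

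Of the 13 type II cadherins, Cdh6 was lower and Cdh12 was higher in tooth germ (15.4% called, against 5.81% of all genes). The other 11 were not called. The median log2 difference of the type was 0.011. Cdh6, or K-cadherin, is a cadherin of kidney, neural tube and neural crest. It read 7.48, 7.25 and 7.42 in tooth germ and 7.75, 7.74 and 7.87 in oral tissue. Every oral tissue value lay above every tooth germ value, at -0.41 on the log2 scale (SE 0.073, adjusted p = 0.0054). Oral tissue was 1.33-fold higher. Without both libraries of litter 3 the value was -0.39 and the adjusted p was 0.0502.

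Cdh12, a brain cadherin, was dim and changed little. Its signal was 7.08, 7.21 and 7.13 in tooth germ and 6.94, 6.94 and 7.002 in oral tissue. Cdh12 differed by 0.18 on the log2 scale (SE 0.043, adjusted p = 0.0289), and its second probe differed by 0.20 (adjusted p = 0.0070 over all probes). Both probes were below the median gene of 7.26. The call was lost without oral tissue library 1 or 2 (adjusted p = 0.0945 and 0.0851) and without tooth germ library 2 or 3 (adjusted p = 0.110 and 0.0700).

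Cdh5 encodes VE-cadherin, the adherens junction cadherin of endothelium. It read 8.78, 8.81 and 8.84 in tooth germ and 9.01, 8.89 and 9.07 in oral tissue. The groups did not overlap, yet the log2 difference of -0.18 (95% interval -0.35 to -0.0070) did not pass the adjustment over all genes (adjusted p = 0.267). The mean over 10 endothelial markers was 8.86, 8.86 and 8.88 in tooth germ and 8.97, 9.07 and 9.14 in oral tissue. Of those markers 2 were lower and 8 were not called, and only Kdr stood at or below the median gene. The part of endothelial content in the Cdh5 values was not tested.

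Cdh11 encodes OB-cadherin, the type II cadherin of mesenchyme and osteoblasts. It read 7.85, 7.93 and 7.41 in tooth germ and 7.65, 7.64 and 7.67 in oral tissue. Tooth germ library 3 lay below all oral tissue values, and the other tooth germ libraries lay above all of them. On average Cdh11 differed by 0.079 on the log2 scale (95% interval -0.17 to 0.32, adjusted p = 0.799). Without tooth germ library 3 it was 0.24 (adjusted p = 0.0853), and without tooth germ library 2 it was -0.020, so single libraries set both its sign and its size. A second probe of Cdh11 differed by 0.077 and its dimmest probe by -0.033.

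The remaining type II cadherins were at or below the median gene: Cdh7, Cdh8, Cdh9, Cdh10, Cdh18, Cdh19, Cdh20, Cdh22 and Cdh24. Among these, which are named here after their values were seen, the groups did not overlap for Cdh8 (log2 difference -0.12, adjusted p = 0.0984), Cdh18 (0.083, adjusted p = 0.111) and Cdh19 (0.11, adjusted p = 0.243). Cdh19 is a cadherin of Schwann cell precursors. Sox10, a factor of the same lineage, read 8.06, 8.03 and 8.10 in tooth germ and 9.30, 8.78 and 9.68 in oral tissue. The second probe of Cdh19 differed by -0.0055, so Cdh19 had no settled direction. Of 5 glial markers measured only Sox10 was called, and the other 4 were at or below the median gene.

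The 5 cadherins outside both types were not called. Cdh13 encodes T-cadherin, which is held by a lipid anchor and has no cytoplasmic tail. It read 7.76, 7.76 and 8.07 in tooth germ and 8.04, 7.82 and 7.86 in oral tissue, so the groups overlapped. The log2 difference of Cdh13 was -0.041 (95% interval -0.25 to 0.17), and in the litters it was -0.28, -0.054 and 0.21. Cdh16 of kidney, Cdh17 of gut, Cdh23 of hair cell tip links and Cdh26 stayed below the median gene, with log2 differences between -0.060 and -0.019.

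Among the delta protocadherins, the delta-2 genes Pcdh17, Pcdh10 and Pcdh19 were lower in tooth germ, while no delta-1 gene passed the main test. The called share was 60.0% of the 5 delta-2 genes, against 5.81% of all genes. Delta-2 protocadherins recruit the WAVE complex, which builds branched actin. Pcdh10 read 8.001, 7.84 and 7.86 in tooth germ and 8.50, 8.72 and 8.49 in oral tissue. The groups were well apart, at -0.67 on the log2 scale (SE 0.084, adjusted p = 5.0e-04). Signal was thus 1.59-fold higher in oral tissue. Both other probes of Pcdh10 were also called, at -0.47 (adjusted p = 0.0029) and -0.45 (adjusted p = 0.0057), adjusted over all probes. Oral tissue library 2 was highest for Pcdh10, unlike Cdh15 and Cdh4, for which it was lowest.

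Pcdh17, a protocadherin of synapses, read 8.63, 8.63 and 8.70 in tooth germ and 9.51, 9.38 and 9.09 in oral tissue. The tooth germ libraries were nearly level, and oral tissue library 3 was closest to them. The log2 difference was -0.67 (SE 0.10, adjusted p = 0.0018), or 1.59-fold higher in oral tissue. A dim second probe differed by -0.11 and was not called, and with both probes averaged the difference was -0.39 (adjusted p = 0.0156). The litter differences were -0.88, -0.74 and -0.40. Pcdh17 was called in every alternative tried with the titled groups.

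Pcdh19, an X-linked gene of neural adhesion, read 7.61, 7.53 and 7.54 in tooth germ and 7.79, 7.83 and 7.86 in oral tissue. The groups did not overlap, and the log2 difference was -0.27 (SE 0.061, adjusted p = 0.0224). A second, dim probe differed by 0.020, and averaging both gave -0.13 (adjusted p = 0.0816). The call was lost without oral tissue library 2 or 3 (adjusted p = 0.0561 and 0.0794) and without tooth germ library 2 or 3 (adjusted p = 0.0960 and 0.0645). The remaining delta-2 genes Pcdh8 and Pcdh18 were below the median gene and differed by 0.023 and -0.067, with 95% intervals of -0.042 to 0.088 and -0.18 to 0.047.

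Of the delta-1 genes, Pcdh9 came closest to a call. It read 7.76, 7.81 and 7.69 in tooth germ and 8.28, 8.20 and 7.86 in oral tissue. The groups did not overlap, and oral tissue library 3 lay nearest to tooth germ. Pcdh9 differed by -0.36 on the log2 scale (SE 0.10, adjusted p = 0.0645), with an adjusted p of 0.0105 with litter as a block and of 0.0044 without oral tissue library 3 (-0.49). The other 3 probes of Pcdh9 were dim and differed by -0.070 to -0.0038. Pcdh7 read 8.39, 8.64 and 8.26 in tooth germ and 8.40, 8.44 and 8.19 in oral tissue, overlapping, with a difference of 0.084 (95% interval -0.14 to 0.31). Pcdh1, which is found in epithelia as well as in the nervous system, differed by -0.020 (95% interval -0.16 to 0.12).

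Pcdh20 was the brighter of both members called higher in tooth germ. It read 8.39, 8.54 and 8.51 in tooth germ and 8.22, 8.08 and 8.08 in oral tissue. The groups did not overlap, with litter 1 showing the smallest gap at 0.18 against 0.46 and 0.43 in the others. Pcdh20 was higher by 0.36 on the log2 scale (SE 0.076, adjusted p = 0.0161), or 1.28-fold. A dim second probe differed by 0.034 (adjusted p = 0.809 over all probes), and averaging both gave 0.20 (adjusted p = 0.0566). The call was lost without oral tissue library 2 or 3 (adjusted p = 0.0582 and 0.0696) and without tooth germ library 2 (adjusted p = 0.0709).

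Pcdh20 and Pcdh9 neighbour each other with no protein-coding gene between them in the RefSeq table, and their differences had opposite signs. Pcdh17 lies on the same chromosome, with 1 protein-coding gene between it and Pcdh8. The windows before the starts of Pcdh17 and Pcdh20 are shown because these genes, on 1 chromosome, went opposite ways, and that of Pcdh10 because it was lower together with Pcdh17. They lie at chr14:84443313-84443562 (plus strand), chr14:88471397-88471646 (minus strand) and chr3:45378148-45378397 (plus strand) in GRCm38.p6, with the same capitals and source as for Cdh15.
Pcdh17: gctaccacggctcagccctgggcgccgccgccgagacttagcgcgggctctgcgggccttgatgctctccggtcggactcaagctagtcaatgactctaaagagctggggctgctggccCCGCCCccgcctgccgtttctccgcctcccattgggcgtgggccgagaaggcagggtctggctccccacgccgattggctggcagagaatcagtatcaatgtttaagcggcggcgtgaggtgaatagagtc
Pcdh20: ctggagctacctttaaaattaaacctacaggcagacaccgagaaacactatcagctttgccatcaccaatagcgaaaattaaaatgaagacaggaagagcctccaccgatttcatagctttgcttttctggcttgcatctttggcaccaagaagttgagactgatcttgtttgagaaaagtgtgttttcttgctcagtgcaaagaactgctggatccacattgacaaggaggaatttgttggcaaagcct
Pcdh10: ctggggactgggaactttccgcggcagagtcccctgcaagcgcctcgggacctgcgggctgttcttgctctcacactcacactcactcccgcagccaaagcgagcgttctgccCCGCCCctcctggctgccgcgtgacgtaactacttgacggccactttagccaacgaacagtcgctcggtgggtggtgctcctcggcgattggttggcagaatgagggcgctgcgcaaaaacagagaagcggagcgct
The windows held 64.8% G and C for Pcdh17 and 63.2% for Pcdh10, with 21 and 22 CG dinucleotides and 1 GC box each. The Pcdh20 window had 42.4% G and C, 3 CG dinucleotides and no GC box. Only 22 of the 86 members had a promoter in the table. Over their 25 promoters the median was 58.4% G and C and 10 CG dinucleotides, and it was 52.4% and 6 over all promoters. Among the other members called lower, Cdh6 had 51.2% G and C and 6 CG dinucleotides, Cdh15 had 62.0% and 5, and Pcdh19 had 69.2% and 16. Cdh12, called higher, had 46.8% and 7. None of the 3 windows shown for Pcdh17, Pcdh20 and Pcdh10 held an E-box. No TATAAA was found in them or in the Cdh15 window, against 12.4% of all promoters that hold it on either strand. Of the 8 called members 7 had a promoter in the table, and Cdh4 had none.

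Pcdh12, an endothelial protocadherin, read 8.70, 8.53 and 8.59 in tooth germ and 8.70, 8.59 and 8.66 in oral tissue. The ranges overlapped, with a log2 difference of -0.047 (95% interval -0.21 to 0.12, adjusted p = 0.827). Pcdh15, the partner of Cdh23 in tip links, was below the median gene and differed by -0.043.

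**Figure D3:**
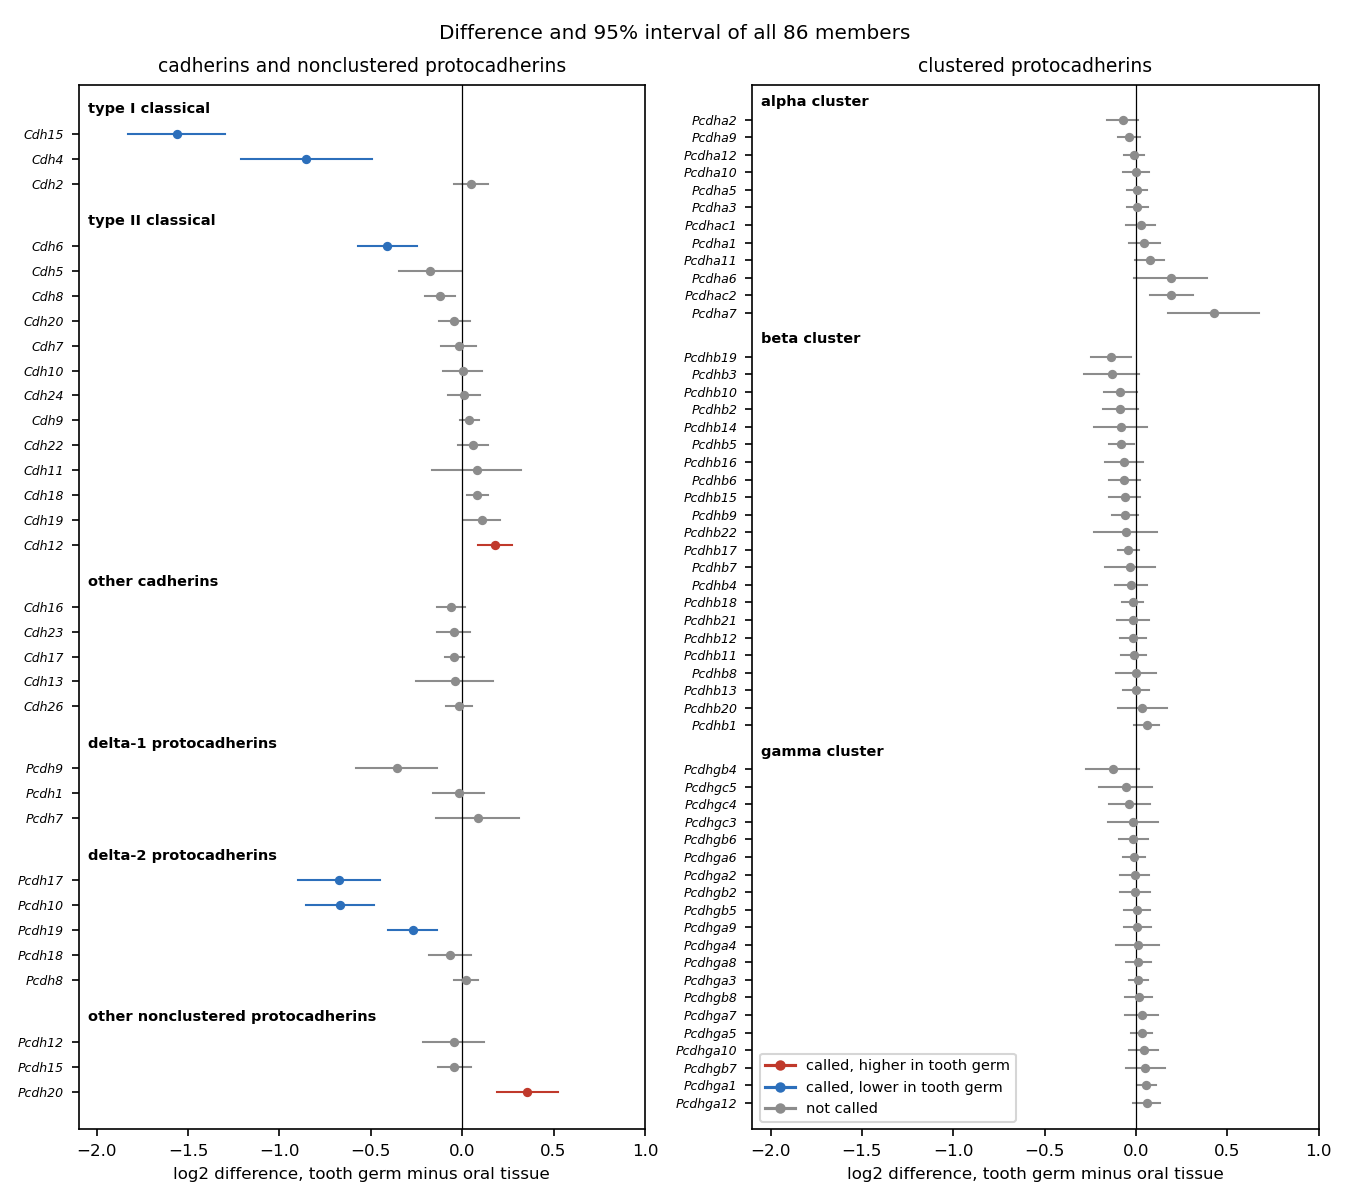
Log2 difference, tooth germ minus oral tissue, with its 95% interval for each of the 86 members, ordered by size within each subgroup. Red marks called members that were higher in tooth germ, blue those that were lower, and grey those not called. The calls lie among the classical, delta-2 and other nonclustered genes, and no clustered gene passed the main test.

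None of the 54 clustered protocadherins passed the main limma test, against 5.81% of all genes. An unadjusted p under 0.05 was found for 5 of the 54, a smaller share than the 3262 of all 19057 genes. With litter as a block 2 were called (3.7%, against 8.88% of all genes), Pcdha7 and Pcdhac2 of the alpha cluster. Both were also called with robust shrinkage. Without oral tissue library 1, Pcdha7 was called higher, and Pcdha2 and Pcdhb15 were called lower. Of the 54 genes 45 were at or below the median gene, where a difference could be compressed. Genes of the alpha cluster, and likewise those of the gamma cluster, share their last exons, so a probe placed there would read all isoforms of that cluster. Where each probe lies was not given in the sources used here, and the gene assigned to a bright probe of these clusters is therefore uncertain.

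Pcdha7 read 8.83, 8.87 and 8.51 in tooth germ and 8.50, 8.28 and 8.15 in oral tissue. The lowest tooth germ value was just above the highest oral tissue value, and within the litters the differences were 0.33, 0.59 and 0.36. Pcdha7 differed by 0.43 on the log2 scale (SE 0.11, adjusted p = 0.0511). With the litter block the adjusted p was 0.0030. A second Pcdha7 probe was higher by 0.24 (adjusted p = 0.0338 over all probes), and 2 dim ones differed by 0.023 and -0.016. Without oral tissue library 1 the adjusted p was 0.0247, and without tooth germ library 3 it was 0.0167. Pcdhac2 read 7.14, 7.35 and 7.20 in tooth germ and 7.03, 7.03 and 7.04 in oral tissue, a difference of 0.19 (adjusted p = 0.0577). The litter block gave it an adjusted p of 0.0279. Pcdha6, named after its values were seen, had the next largest difference of the cluster, 0.19 (adjusted p = 0.316), and its groups overlapped.

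Differences in the beta cluster were small and mostly negative. Of its 22 genes 19 (86.4%) had a negative difference, against 48.2% of all genes, with a median of -0.049 and no size above 0.14. The beta genes neighbour each other, and 18 of them were at or below the median gene. Their signs are not treated here as independent observations, and dependence among them was not tested. The brightest beta probe, for Pcdhb22, read 8.37, 8.26 and 8.22 in tooth germ and 8.44, 8.34 and 8.24 in oral tissue, with a difference of -0.057 (95% interval -0.23 to 0.12). In the gamma cluster 8 of 20 genes had a negative difference, and the median was 0.0085. Pcdhgb4 read 8.05, 7.99 and 8.03 in tooth germ and 8.12, 8.20 and 8.13 in oral tissue, groups that did not overlap, at -0.13 (95% interval -0.27 to 0.018, adjusted p = 0.369). Pcdhgc5 differed by -0.057 (95% interval -0.20 to 0.086).

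Over the whole family 19 of 86 members (22.1%) had groups that did not overlap, against 23.1% of all genes. Apart from the 8 called members these were Cdh5, Cdh8, Cdh18, Cdh19, Pcdh9, Pcdha7, Pcdhac2, Pcdhb1, Pcdhb3, Pcdhga1 and Pcdhgb4. Their share is close to the background, so the lack of overlap is not a result about the family.

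The epithelial cadherins left out of the family served for comparison. Cdh1 read 9.17, 9.29 and 8.97 in tooth germ and 9.09, 9.10 and 8.95 in oral tissue (log2 difference 0.097, adjusted p = 0.684). Cdh3 read 8.64, 8.76 and 8.75 in tooth germ and 8.68, 8.38 and 8.20 in oral tissue (0.29, adjusted p = 0.175). Both ranges overlapped, though a dimmer Cdh3 probe was higher by 0.28 (adjusted p = 0.0091 over all probes).

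Ctnnb1, Ctnna1, Fat1 and Zeb2 are named below although they were not called, chosen after their values were seen. Of the 11 catenins and linkers that connect cadherins to actin 2 were called (18.2%, against 5.81% of all genes), both higher. The other 9 were not called, and the median log2 difference of the list was 0.045. Pkp4, a plakophilin relative of the delta-catenins, read 11.75, 11.64 and 11.80 in tooth germ and 11.39, 11.37 and 11.52 in oral tissue (0.30, SE 0.078, adjusted p = 0.0445). Ctnnd2, the neural delta-catenin, was higher by 0.20 (adjusted p = 0.0369). Ctnnb1, the beta-catenin gene, differed by -0.069 and Ctnna1, the alpha-catenin gene, by 0.15, neither called. Of 8 WAVE complex genes 1 was called (12.5%, against 5.81% of all genes), Wasf1, at 10.88, 11.06 and 10.83 in tooth germ and 10.53, 10.54 and 10.43 in oral tissue (0.43, SE 0.086, adjusted p = 0.0114). The 3 called delta-2 protocadherins were lower, while Pcdh8 and Pcdh18 were not called.

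Of 16 distant relatives in the cadherin superfamily 1 was called (6.25%, against 5.81% of all genes). Cdhr1, a photoreceptor cadherin, read 7.54, 7.55 and 7.65 in tooth germ and 8.05, 7.97 and 8.38 in oral tissue (-0.55, SE 0.098, adjusted p = 0.0051). Fat1, the large cadherin of cell polarity, differed by -0.21 and was not called (adjusted p = 0.176). Of 6 cadherin regulators 1 was called (16.7%, against 5.81% of all genes), Zeb1, a repressor of Cdh1 transcription. Zeb1 read 9.84, 9.78 and 9.77 in tooth germ and 10.83, 10.61 and 10.65 in oral tissue (-0.90, SE 0.084, adjusted p = 5.9e-05). Its relative Zeb2 differed by 0.25 and was not called.

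**Figure D4:**
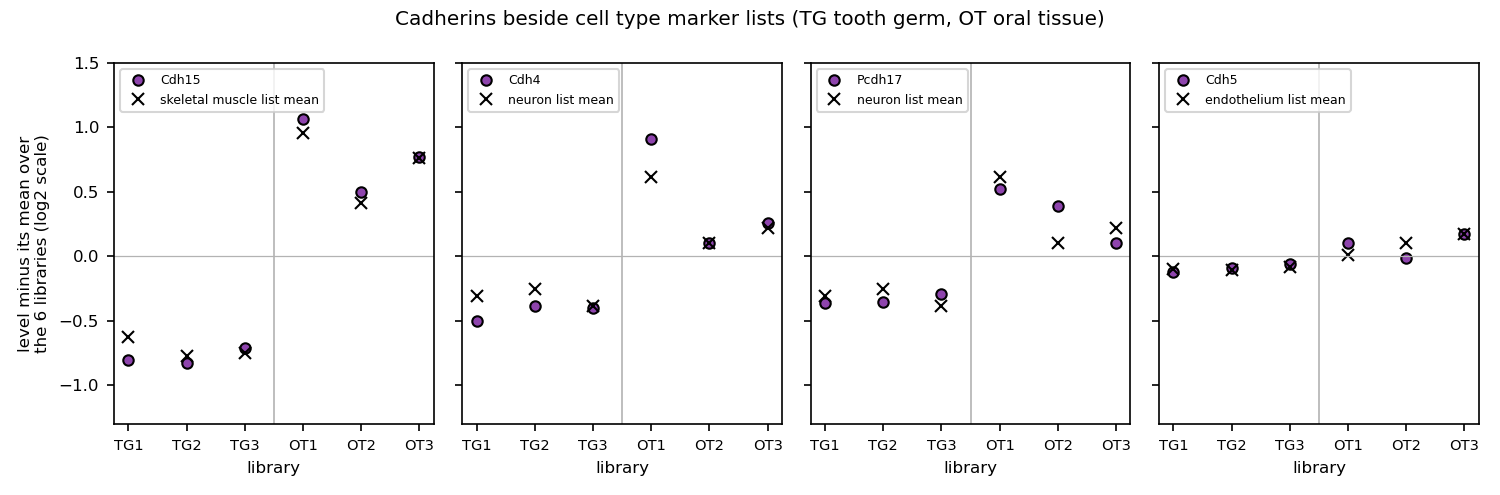
Level of Cdh15, Cdh4, Pcdh17 and Cdh5 (circles) and the mean of a cell type marker list (crosses) in each library, minus its own mean over the 6 libraries (log2 scale). Tooth germ libraries TG1 to TG3 are on the left and oral tissue libraries OT1 to OT3 on the right. Cdh15 stands beside the 12 muscle markers, Cdh4 and Pcdh17 beside the neuron markers, and Cdh5 beside the endothelial markers. Cdh15 and Cdh4 have the same order among the oral tissue libraries as the lists drawn with them, and Pcdh17 and Cdh5 do not. The muscle and neuron lists share that order, so it does not tell these lists apart. The panels were chosen after the values were seen.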

How the data were processed

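RNA of 6 pooled mouse samples was measured on Illumina bead arrays. The authors deposited 1 table of 45281 probes on a log2 scale, normalized with lumi 2.8.0 per the submitters' processing notes. The sorted columns differ by at most 0.00083, as after quantile normalization. The labels and notes do not say whether the scale is plain log2 or a variance-stabilized form of it. Detection p-values were not used here. Arrays have no read depth, and their number, 3 per group, limits the precision.

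Gene names came from the platform annotation: 34885 probes had 1 symbol, 18 had several and 10378 had none. The brightest probe stood for each of 19057 genes, of which 9172 had several probes. Groups followed the sample titles. Tooth germ was compared with oral tissue in limma 3.58.1 (R 4.3.3) with a variance trend, without litter, leaving 4 residual degrees of freedom. P-values were Benjamini-Hochberg adjusted over all 19057 genes, and an adjusted p under 0.05 was a call. Probes were also fitted singly, adjusted over 34885 probes. The fit was also run on simulated data with independent noise, no litter effect and differences placed only in genes above the median. That run does not bear on the litter pairs or on finding differences in dim genes. Log2 differences are tooth germ minus oral tissue.

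The labels state that same-numbered arrays share a litter. Deviations from the group means correlated at 0.413, 0.233 and 0.266 within litters, and at -0.267 to -0.0724 between them, over 9528 genes. The deviations of a group cancel out for each gene, so positive values within litters bring negative ones between them. The negative values therefore add no evidence of their own. Litter as a block left 2 residual degrees of freedom.

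Named genes were the called members, the 6 brightest members not called, and well-known classical and delta members. Of genes outside the family, Cdh1, Cdh3 and called genes of the lists were named. Exceptions are stated where they occur. The members and lists were chosen with earlier results of these data known. All 86 member symbols were found in the RefSeq table of GRCm38.p6, which gave the promoter sequences and gene order. Replicates are pools of embryos from outbred litters.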

Additional observations from a re-analysis of the deposited data

How the results depend on the processing

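The calls of Cdh15, Pcdh10 and Pcdh17 held in each of the alternatives tried with the titled groups, and the 8 called members kept their direction in them. Naming the groups by source name turned each sign: Cdh15 1.56, Pcdh10 0.67, Pcdh17 0.67, Cdh6 0.41, Cdh4 0.85, Pcdh19 0.27, Pcdh20 -0.36 and Cdh12 -0.18, with 6 members higher and 2 lower. The 2 members called higher became 4 with litter as a block (replicate block), 4 with litter as a random effect and 4 with robust shrinkage. Calls over all genes went from 1107 in the main fit to 1693, 1430 and 1163 in these fits. The members called higher became 1 with all probes of a gene averaged, 1 without a variance trend and 0 at an adjusted p under 0.01. Calls over all genes were then 933, 1042 and 601. Leaving out 1 library gave 0 to 3 members higher and 5 to 8 lower, with 0 higher without oral tissue library 2 or tooth germ library 2. Over all genes, 793, 1025 and 831 were called without oral tissue library 1, 2 or 3. Leaving out a litter gave 0 to 1 higher and 5 lower. Without litter 1, 2 or 3 the adjusted p was 0.0821, 0.172 and 0.154 for Pcdh19, and 0.0934, 0.228 and 0.0897 for Cdh12. Pcdh20 had an adjusted p of 0.163 without litter 2 and 0.137 without litter 3. Cdh12 also lost its call without a variance trend (adjusted p = 0.0787). The block lost no call and added Pcdha7, Pcdhac2 and Pcdh9. Removing dim probes left 12150 of the 19057 genes. Of the 23 members followed through the alternatives it left out Cdh2 and Pcdh8, and it left out other dim members as well. An offset before taking logs was not run, since the table is already on a log scale. The cause of these changes was not tested. Signal near the lower end of the scale limits 63 members at or below the median gene.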
